A study of Danio rerio with 27 samples.

Results

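This report describes 100 of the 18336 zebrafish genes in the table, those with lower values under thioacetamide (TAA), a liver toxin, in hepatic endothelial cells (ECs), hepatocytes (HEPs) and hepatic stellate cells (HSCs) alike. For each gene the mean of the control libraries was subtracted from the mean of the TAA libraries in each cell type. Genes were ranked by the weakest of these 3 differences, and the 100 lowest were taken. The differences of the 100 genes between TAA and control are therefore a description, and no test of them supports anything below. Values are regularized log (rlog) values on the log2 scale, in which a difference of 1 is a doubling and in which differences of genes with few reads are drawn towards 0. The table gives no read counts, so the depth of each library is unknown. Many of the 100 are known as genes of macrophages and other leukocytes. They included the invariant chain gene cd74a, 4 MHC class II genes, the complement genes c1qa and c1qb, the macrophage receptor gene csf1ra and the chemokine receptor gene cxcr4b.

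Macrophages of the liver lie in the sinusoids beside the endothelium and clear particles, dead cells and old blood cells. They carry receptors for growth factors, complement and microbial products, and they show peptides to T cells on MHC class II molecules, which are assembled with the help of the invariant chain. Some receptors of these cells signal through Src family kinases, phosphatases and adaptors that are used mainly in blood cells.

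The libraries came from adult females of 3 reporter lines on the AB background. Tg(kdrl:ras-mCherry) labels ECs, Tg(fabp10a:dsRed) labels HEPs and Tg(hand2:EGFP) labels HSCs, each through the promoter named in the line. Treated fish were injected into the body cavity with 500 mg/kg TAA, and control fish with sterile water as the labels name it, 6 times in 2 weeks. From livers, 100000 cells were sorted per library. Each line gave 3 groups of 3 libraries, which were reporter-negative control cells, reporter-positive control cells and reporter-positive TAA cells. The methods give fewer control fish than there are control libraries, so control libraries share fish, and the sources do not say which. The SDs and p-values below measure the spread between these libraries, which are not separate animals throughout. The sources also do not say whether TAA and control libraries were prepared together, and a preparation effect cannot be told apart from the treatment.

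Several libraries went against their labels, which bears on every value below. The mean of 19 endothelial marker genes was 7.90 to 8.25 in the control ECs and 0.51 to 0.92 in the libraries labelled as TAA ECs, where 13 of the 19 genes had a mean under 1. The mean of 18 hepatocyte marker genes was 8.97 to 10.07 in control ECs and 13.67 to 14.04 in TAA ECs, at or above the 12.78 to 13.29 of control HEPs. hand2, whose promoter drives the reporter of the HSC line, read -0.13, 1.39 and 0.77 in control HSCs and 2.80, 2.70 and 1.78 in TAA HSCs, and the hepatocyte markers averaged 12.42 to 13.37 in control HSCs. Replicate 3 of the EGFP-negative cells stood apart from its group, with endothelial markers at 6.11 against 2.64 and 2.41, and hepatocyte markers at 7.39 against 13.30 and 13.22. The reporter-negative cells were not free of hepatocyte RNA. The hepatocyte markers averaged 12.83 to 13.05 in mCherry-negative and 12.86 to 12.95 in dsRed-negative cells, within the range of control HEPs. In sorted bulk libraries, fewer cells of a type and less RNA per cell cannot be told apart.

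The mean over the 100 genes was 7.12 to 7.35 in control ECs and 1.17 to 1.40 in TAA ECs. It was 4.94 to 5.68 in control HEPs against 2.91 to 3.13 under TAA, and 4.03 to 5.03 in control HSCs against 2.2 to 2.45 under TAA. The TAA libraries of every cell type lay below all its controls. Over the members the differences had medians of -5.95 (ECs), -2.15 (HEPs) and -2.11 (HSCs), beside medians over all genes of -0.25, -0.02 and -0.06. With each library centred on its own median the members' medians were -5.37, -2.12 and -2.18, and with quantile normalization -5.41, -2.14 and -2.13.

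**Figure D1:**
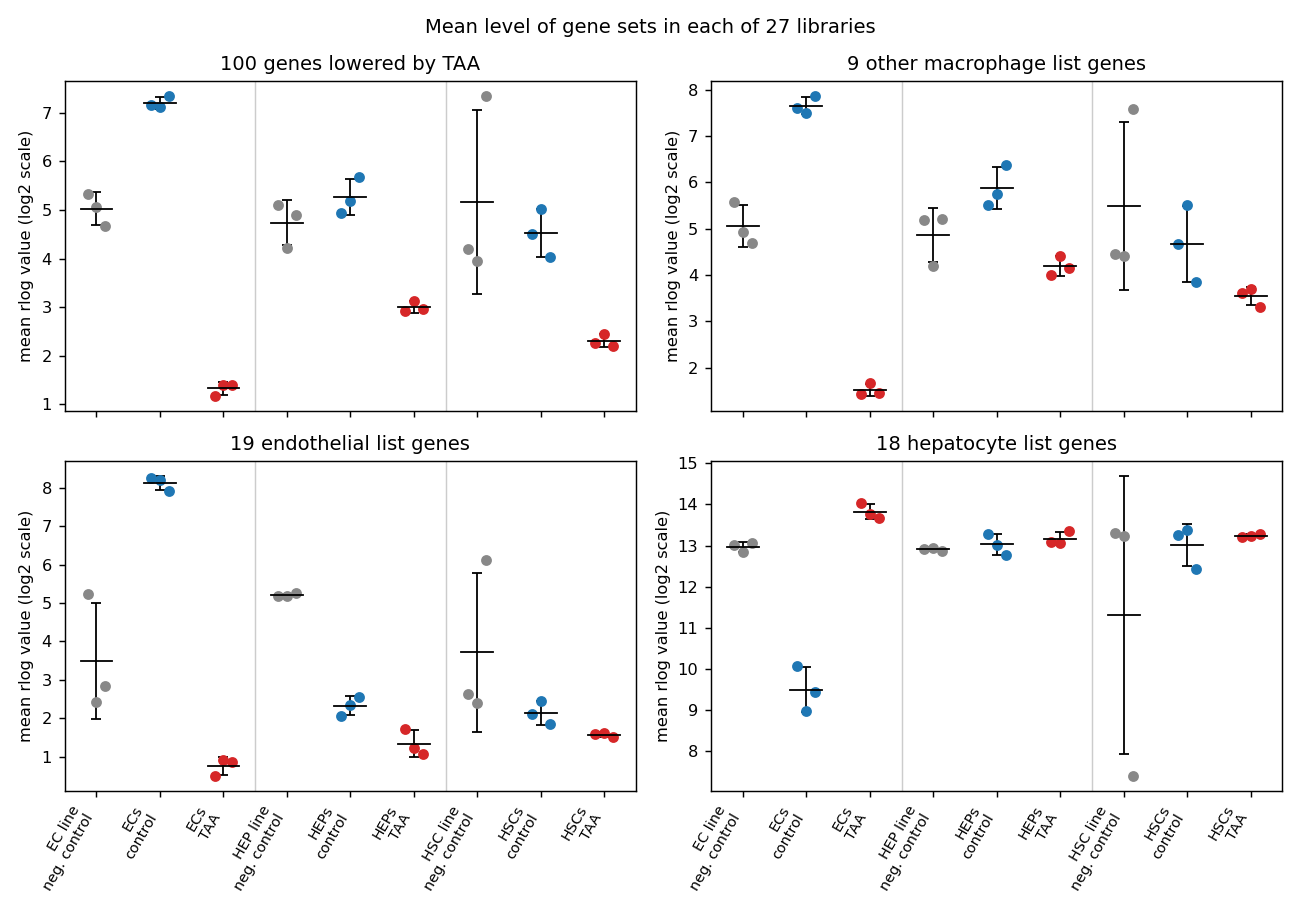
Mean rlog value (log2 scale) of 4 gene sets in each of the 27 libraries, by line and group. Points are libraries, horizontal lines are group means and bars are ± 1 SD (n = 3). The 100 genes and 9 other macrophage list genes are lowest in TAA ECs, where the endothelial set is at 0.51 to 0.92 and the hepatocyte set is at 13.67 to 14.04.

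In the fit across all genes with limma, which compares each difference with the spread between libraries and adjusts p-values after Benjamini and Hochberg (threshold 0.05), 100 members passed as lower in ECs, 86 in HEPs and 89 in HSCs. Among all genes, 31.5% passed as lower and 19.7% as higher in ECs, 5.27% and 2.13% in HEPs, and 3.94% and 4.26% in HSCs. Since the members were chosen on this contrast, nothing is read from these counts. In ECs the share of lower among the called genes was 61.5%, and it was 39.2% with libraries centred on their median and 47.1% with quantile normalization. Every TAA library was below every control library for 100 members in ECs, 94 in HEPs and 95 in HSCs, beside 36.6%, 17.9% and 18.7% of all genes. In all 3 cell types at once this held for 91 members, beside 3.52% of all genes. The 9 exceptions overlapped in HEPs or HSCs. They were pik3r6a, PLA2G4A, GPR183, slc47a2.1, rgs14a, si:dkey-26c10.5, si:zfos-1069f5.1 and 2 genes without a symbol.

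The difference was largest in ECs for 97 members, in HSCs for SHANK2 and SLC16A6 and in HEPs for tmem116. Over all genes, 50.9% had their lowest difference in ECs. Among the control cell types, 95 members were highest in ECs, beside 50.62% of all genes, and for 87 every control EC library was above every control HEP and HSC library, beside 27.6% of all genes. All counts of this paragraph come from libraries that the rule used. A rule that takes large falls favours genes with high control values, so the counts are a description. Under TAA 84 members had their lowest mean in ECs, beside 35.38% of all genes. In TAA ECs 44 members had a mean under 1, and values there cannot be told apart from a floor, as described below. The median member mean under TAA was 1.15 in ECs, 2.17 in HSCs and 2.89 in HEPs.

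**Figure D2:**
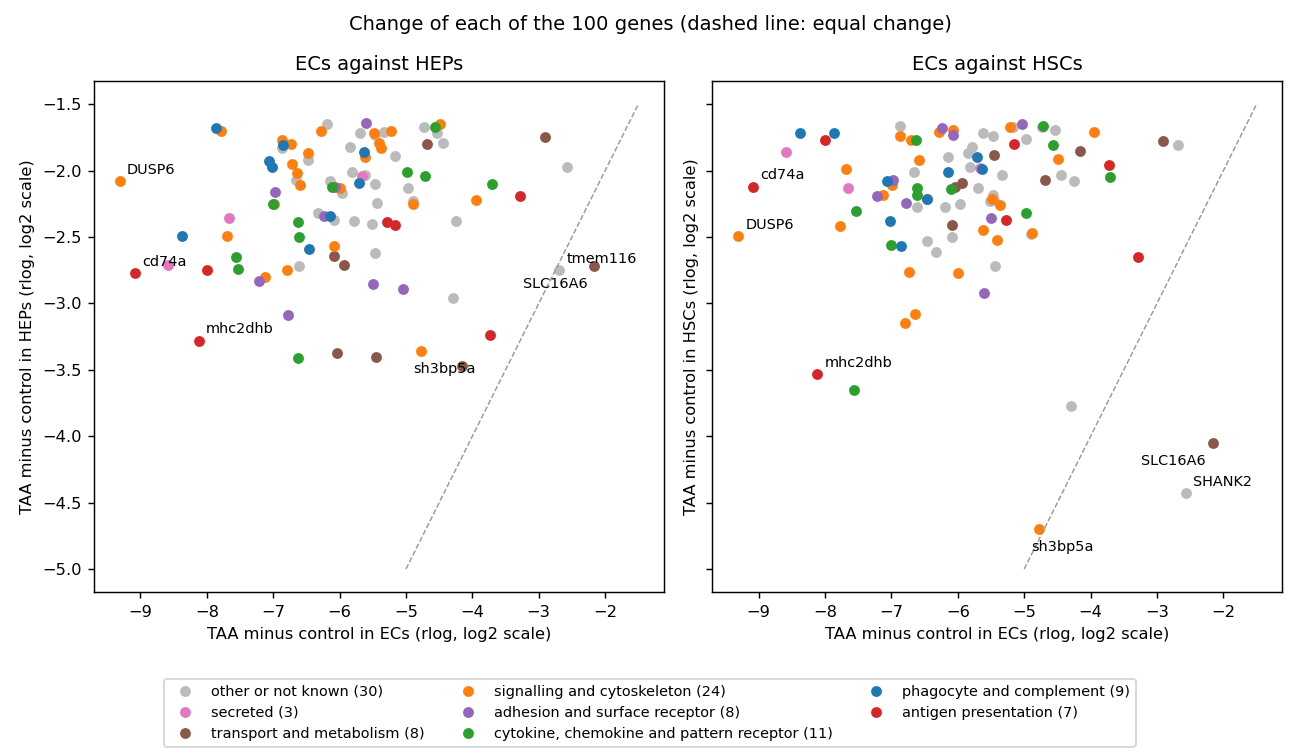
TAA minus control of each of the 100 genes on the rlog (log2) scale, ECs on the horizontal axis against HEPs (left) and HSCs (right), coloured by role, with the dashed line marking equal change. Nearly all points lie left of the line. SLC16A6 and tmem116 lie right of it or on it in HEPs, and SLC16A6 and SHANK2 lie right of it in HSCs.

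Members are described below by role. The antigen presentation group held 7 members, with median differences of -5.28, -2.75 and -2.12 in ECs, HEPs and HSCs. cd74a encodes the invariant chain, the chaperone of MHC class II. Its value was 12.90, 12.53 and 13.14 in control ECs and 3.38, 3.98 and 3.98 in TAA ECs, a difference of -9.08. In HEPs it went from 10.11, 10.73 and 11.21 to 7.72, 8.35 and 7.67, and in HSCs from 9.74, 10.38 and 8.77 to 7.49, 7.55 and 7.49. Control and TAA libraries did not overlap in any cell type, and cd74a stayed well above 1 in HEPs and HSCs. ctss2.1, a gene of the cathepsin S type, whose mammalian relative cuts the invariant chain, differed by -8.00, -2.75 and -1.77 in ECs, HEPs and HSCs. cd83, a surface marker of mature dendritic cells in mammals, differed by -3.73, -3.24 and -1.96.

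The MHC class II members were mhc2dhb, mhc2dgb, mhc2dga and mhc2d4b. mhc2dhb was the second lowest member by the rule, at -8.12, -3.28 and -3.53 in ECs, HEPs and HSCs. In HEPs it read 5.61, 4.58 and 7.23 in controls and 2.02, 2.67 and 2.88 under TAA. mhc2dga read 1.2, 0.93 and 4.57 in control HEPs and -0.06, 0.29 and -0.09 in TAA HEPs. The high value was in replicate 3 alone, and the reporter-negative cells of the same line showed the same split, at 0.51, 0.79 and 4.52. mhc2dgb had this pattern too, with 1.15, 0.88 and 5.09 in control HEPs and 0.45, 1.42 and 4.17 in the negative cells. Without control HEP replicate 3 the difference in HEPs was -1.02 for mhc2dga in place of -2.19, and -1.03 for mhc2dgb in place of -2.39. In ECs mhc2dga read 7.32, 7.42 and 8.10 in controls and 4.94, 3.67 and 4.40 under TAA, and with cd74a, cd83 and SLC16A6 it was one of the members above 3 in every TAA EC library. In the RefSeq annotation of GRCz12tu, mhc2dga, mhc2dgb and mhc2dhb stand next to each other. MHC class II copies are alike in sequence, so reads may be split between them.

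**Figure D3:**
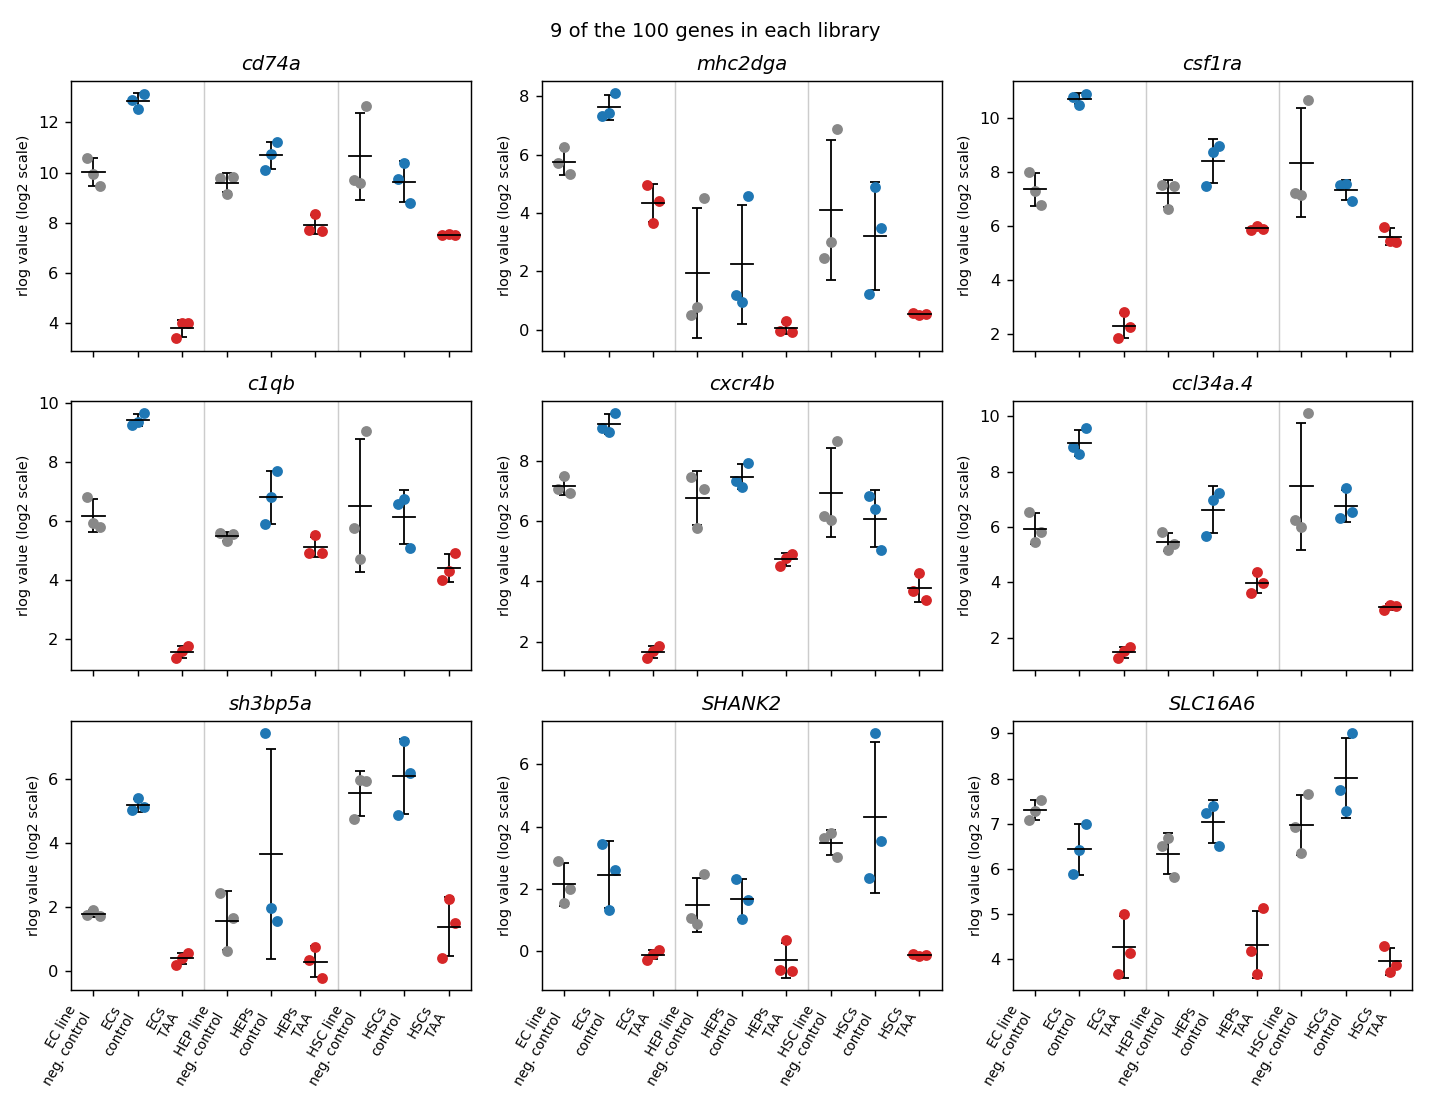
rlog value (log2 scale) of 9 of the 100 genes in each library, by line and group; points are libraries, lines are means and bars are ± 1 SD (n = 3). cd74a, csf1ra, c1qb, cxcr4b and ccl34a.4 are highest in control ECs and lowest in TAA ECs. mhc2dga and sh3bp5a each have a single high control HEP library, and SHANK2 a single high control HSC library.

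The phagocyte and complement group held 9 members. csf1ra encodes the receptor of colony stimulating factor 1, on which macrophages depend. It read 10.77, 10.47 and 10.86 in control ECs and 1.88, 2.81 and 2.27 under TAA. In HEPs it read 7.49, 8.75 and 8.97 against 5.86, 5.99 and 5.89, and in HSCs 7.51, 7.57 and 6.92 against 5.96, 5.46 and 5.42. The groups did not overlap in any cell type. c1qa and c1qb encode chains of C1q, which starts the classical complement pathway and is made by macrophages. c1qb read 9.26, 9.36 and 9.65 in control ECs against 1.34, 1.59 and 1.75 under TAA, and 5.88, 6.80 and 7.69 against 4.90, 5.52 and 4.92 in HEPs. Its HSC values were 6.56, 6.73 and 5.06 against 3.98, 4.29 and 4.91, where the lowest control and the highest TAA library lay close together. c1qa differed by -6.86, -1.81 and -2.57 in ECs, HEPs and HSCs.

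spi1a, a transcription factor gene of the PU.1 family of myeloid regulators, differed by -7.06, -1.93 and -2.08. mrc1b, of the mannose receptor family, differed by -7.02, -1.97 and -2.38. cybb encodes the catalytic subunit of the phagocyte NADPH oxidase and differed by -5.71, -2.09 and -1.9. The group was completed by havcr1, whose mammalian relatives bind phosphatidylserine on dead cells, by fcer1gl, related to the Fc receptor gamma chain, and by nrros, a gene of myeloid cells in the mouse. The 9 genes had median differences of -6.86 (ECs), -1.97 (HEPs) and -2.01 (HSCs).

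The group of cytokines, chemokines and receptors held 11 members. Among the ligands, the chemokine gene ccl34a.4 read 8.90, 8.64 and 9.57 in control ECs and 1.26, 1.51 and 1.66 under TAA. It read 6.32, 7.41 and 6.53 in control HSCs and 2.99, 3.2 and 3.13 under TAA, and 5.67, 6.98 and 7.24 against 3.61, 4.36 and 3.97 in HEPs. The chemokine gene ccl35.1 differed by -6.62, -3.41 and -2.13, and il1b, which encodes an inflammatory cytokine made by macrophages and neutrophils, by -4.98, -2.01 and -2.32. Among the receptors, cxcr4b, which binds the chemokine Cxcl12, read 9.08, 8.96 and 9.57 in control ECs and 1.45, 1.70 and 1.85 under TAA. In HEPs it read 7.33, 7.12 and 7.93 against 4.5, 4.77 and 4.89. In HSCs it read 6.82, 6.38 and 5.02 against 3.66, 4.28 and 3.39. TAA libraries lay below controls in each cell type.

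csf2rb, which encodes the shared chain of receptors for myeloid growth factors, differed by -7.01, -2.25 and -2.56. il10ra, of the interleukin 10 receptor, differed by -6.61, -2.50 and -2.18, and cmklr1, the receptor gene of chemerin, by -6.63, -2.39 and -1.77. The Toll-like receptor genes tlr1 and tlr22, whose products sense microbial molecules, differed by -4.72 and -6.11 in ECs, -2.04 and -2.12 in HEPs, and -1.66 and -2.14 in HSCs. il12rb2, of the interleukin 12 receptor, differed by -3.70, -2.10 and -2.05, and its HSC difference was -1.14 without control replicate 2. GPR183, a receptor that guides leukocytes, completed the group.

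The signalling group was the largest, with 24 members and medians of -6.37, -1.98 and -2.21 in ECs, HEPs and HSCs. lyn, a Src family kinase gene of blood cells, read 8.44, 8.75 and 9.04 in control ECs and 1.26, 2.33 and 1.66 under TAA, with HEPs at 6.07, 6.73 and 7.36 against 4.63, 4.55 and 4.22. inpp5d, which encodes the lipid phosphatase SHIP1 of blood cells, differed by -6.47, -1.87 and -2.21. The group also held the adaptor genes themis2 and fyb1b, the phosphatase gene ptpn22, the kinase gene prkcha, the motor gene myo1f, the Rac activator gene PREX1 and NCKAP1L, a blood cell subunit of the WAVE complex that builds actin networks. The related genes ARHGAP45 and hmha1b, which share a symbol in the reference table, differed by -6.73 and -5.41 in ECs, -1.80 and -1.79 in HEPs, and -2.76 and -2.52 in HSCs. rab44, a small GTPase gene, was the fourth lowest member by the rule. It read 6.47, 7.55 and 6.38 in control HSCs and 3.54, 3.67 and 3.74 under TAA, and differed by -6.79 and -2.75 in ECs and HEPs. DUSP6, which encodes a phosphatase that switches off ERK, had the lowest EC difference of all members. It read 12.01, 11.87 and 12.11 in control ECs and 2.59, 3.11 and 2.36 under TAA, while HEPs and HSCs differed by -2.08 and -2.49.

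sh3bp5a, which encodes an SH3-domain binding protein, ranked lowest of all by the rule, but its place rested on a single library. It read 7.43, 1.97 and 1.54 in control HEPs and 0.33, 0.74 and -0.23 in TAA HEPs. The high value was control replicate 1, and without it the HEP difference was -1.47 in place of -3.36. In ECs it read 5.01, 5.39 and 5.11 against 0.19, 0.41 and 0.55, and in HSCs 4.86, 7.18 and 6.17 against 0.40, 2.23 and 1.48. There the groups were apart in every library.

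The adhesion and surface group held 8 members. The integrin genes itgae.2 and itgam.2 differed by -6.98 and -6.07 in ECs, -2.16 and -2.12 in HEPs, and -2.07 and -1.73 in HSCs. crtam, the only member on the list of T and NK cell genes, read 7.38, 7.54 and 7.84 in control HEPs and 4.22, 4.72 and 4.54 under TAA, and differed by -6.78 and -2.24 in ECs and HSCs. cd22, the only member on the B cell list, differed by -5.04, -2.89 and -1.65, and by -0.93 in HSCs without control replicate 2. robo4, a receptor gene of endothelium, read 7.88, 8.22 and 8.21 in control ECs and 0.67, 0.91 and 1.06 under TAA, and it differed by -2.83 and -2.19 in HEPs and HSCs. fxyd5, of a family of ion pump regulators, differed by -5.50, -2.85 and -2.36. The immune receptor gene dicp3.3 and the receptor gene adgrg3 completed the group.

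Among 8 transport and metabolism members were both parts of an amino acid carrier. slc7a7 encodes a light chain and is used by zebrafish macrophages and microglia, and slc3a2b encodes the heavy chain such light chains need. slc7a7 differed by -6.09, -2.64 and -2.41, and slc3a2b by -6.04, -3.37 and -2.12. Glucose use was represented by slc2a3b, a glucose transporter gene, at -4.16, -3.47 and -1.85, and by HK1, a hexokinase gene, at -5.93, -2.71 and -2.09. SLC16A6, of the monocarboxylate transporter family, ran against the usual order. It read 5.88, 6.42 and 7.0 in control ECs against 3.67, 5.01 and 4.13 under TAA, 7.24, 7.40 and 6.5 against 4.17, 3.67 and 5.13 in HEPs, and 7.75, 7.28 and 9.01 against 4.29, 3.71 and 3.87 in HSCs. Its differences were -2.16, -2.72 and -4.05, so that the highest control mean and the lowest difference were in HSCs. The 3 secreted members were plaua, which encodes the plasminogen activator urokinase, FGL2, a fibrinogen-like gene, and olfm4l2.

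The other 30 members were placed in none of these roles, which does not show that they are not leukocyte genes. SHANK2, named for a scaffold of synapses, read 2.34, 7.01 and 3.55 in control HSCs and -0.10, -0.16 and -0.12 under TAA. Its values in control ECs were 3.45, 1.33 and 2.59, and in TAA ECs they were -0.28, -0.09 and 0.02. tmem116, a membrane protein gene, differed by -2.69, -2.75 and -1.81. erv was the third lowest member by the rule, at -4.29, -2.96 and -3.77. It read 4.38, 4.91 and 5.52 in control HSCs and 1.02, 0.95 and 1.54 under TAA. aste1a read 8.30, 7.61 and 2.99 in control ECs and 0.65, 0.89 and 1.04 under TAA, and 4.06, 5.05 and 1.60 in control HSCs against 0.88, 0.81 and 0.86. In both lines replicate 3 was the low one, which the control HEPs at 5.91, 6.38 and 6.22 did not show. si:dkeyp-68b7.12, si:dkey-27i16.2 and ENSDARG00000088283 were also among the 12 lowest members and have no role assigned here. ENSDARG00000088283 differed by -6.61, -2.72 and -2.27.

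At the limit of the rule, the last members inside were cd22 and ptpn22 at -1.65 and dicp3.3 at -1.64. The first genes outside were ENSDARG00000115887 and vsir at -1.64 and ptprc at -1.63. ptprc encodes CD45, found on nearly all leukocytes, and differed by -7.34, -1.63 and -1.79 in ECs, HEPs and HSCs. Leaving out each library in turn moved the difference of 6 members by more than 1.5 times, up or down, in HEPs and of 7 in HSCs, each time through a control library, and of 0 in ECs. In HEPs these were sh3bp5a, mhc2dga, mhc2dgb, pik3r6a, si:dkey-26c10.5 and a gene without a symbol. In HSCs they were il12rb2, INPP4B, cd22, si:dkey-26c10.5, si:ch73-383g2.1, that same gene without a symbol and ENSDARG00000098640, which went from -1.76 to -2.67 without control replicate 3.

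The fixed gene lists showed which other genes moved in the same libraries. The members held 9 of the 18 macrophage genes in the table, 0 of 9 neutrophil, 1 of 15 T and NK cell and 1 of 9 B cell genes. They held none of the thrombocyte, erythroid, endothelial, hepatocyte, stellate or bile duct list genes. The endothelial list leaves out the member robo4, described above as a receptor gene of endothelium. Over all genes the members are 100 of 18336. The lists were chosen with earlier results of these data known, so this overlap is a description. Outside the members stood 9 macrophage genes, of which 9 fell in ECs, 5 fell in HEPs and 4 fell in HSCs (limma, adjusted over all genes), with medians of -6.29, -1.47 and -1.28. marco, a scavenger receptor gene of macrophages, read 8.37, 8.60 and 8.64 in control ECs and 1.12, 1.37 and 1.52 under TAA. In HEPs it read 4.83, 5.89 and 6.48 against 4.69, 5.14 and 4.87, where the groups overlapped. Over the 4 leukocyte lists together, 40 genes outside the members were tested. In ECs 24 of these fell and 2 rose, in HEPs 11 fell and in HSCs 6 fell, beside the 31.5%, 5.27% and 3.94% of all genes given above. The lists differed. Of 9 neutrophil genes 4, 1 and 1 fell in ECs, HEPs and HSCs. Of 14 T and NK cell genes 6, 5 and 1 fell, and of 8 B cell genes 5, 0 and 0. In control HEPs, 8 of all 15 T and NK cell list genes and 5 of all 9 B cell list genes had a mean under 1. Over the 4 lists together, the HEP count was 5, 5 and 6 without replicates 1, 2 and 3, and the HSC count ranged from 0 to 9. These are the libraries and the contrast on which the members were chosen, so the counts are no independent support. The mean of these 9 macrophage genes was 7.5 to 7.86 in control ECs and 1.44 to 1.67 under TAA, 5.5 to 6.37 and 4.0 to 4.42 in HEPs, and 3.85 to 5.5 and 3.32 to 3.69 in HSCs. Their part in the members' differences was not tested. In the comparison of ECs all 19 endothelial list genes fell in ECs, with a median of -7.51, and all 18 hepatocyte list genes rose, with a median of 4.52. The part of this shift in the EC values of the members was not tested. In HEPs the endothelial list had 3 lower and the hepatocyte list 0 called genes, and in HSCs both had 0.

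Other pathway lists were described in the same way here and in the next paragraph, for genes outside the members. Beside their counts, the shares of all genes called lower were 31.5% in ECs, 5.27% in HEPs and 3.94% in HSCs. The shares called higher were 19.7%, 2.13% and 4.26%. Nothing is read from counts near these shares. Genes outside the members that are named from these lists were chosen after their values were seen. Their p-values come from the contrast on which the members were chosen and are no independent support. Leukocyte kinase and adhesion signalling had 23 such genes, and 23 fell in ECs, 18 fell in HEPs and 6 fell in HSCs, or 10 in HSCs with libraries centred on their median. The members lyn, inpp5d, fyb1b, myo1f and prkcha belong to this list. The integrin gene itgb2, the shared beta chain of leukocyte integrins, differed by -6.87 ± 0.33 (SE) in ECs, -2.37 ± 0.33 in HEPs and -1.16 ± 0.33 in HSCs, with adjusted p = 4.11e-12, 0.000266 and 0.0371 from limma. syk, a kinase gene downstream of immune receptors, differed by -6.12 ± 0.43 in ECs, -2.35 ± 0.43 in HEPs and -1.29 ± 0.43 in HSCs, with adjusted p = 3.86e-10, 0.00245 and 0.071. Toll-like receptor and NF-kB signalling had 24 such genes. In ECs 21 fell (15 with centred libraries), in HEPs 4 fell and in HSCs 2 fell. tnfb, of the tumour necrosis factor family, fell in all 3, by 6.27, 1.58 and 2.88. Of 14 chemokine and chemokine receptor genes, 10 fell and 1 rose in ECs, 3 fell in HEPs and 0 in HSCs.

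The antigen presentation list was described without its members cd74a and ctss2.1. It had 13 genes, and 12 fell in ECs (8 with centred libraries), 1 fell in HEPs, and in HSCs 2 fell and 1 rose. cd74b, the second invariant chain gene, fell by 8.22 in ECs, 2.68 in HEPs and 1.56 in HSCs. The class I gene mhc1zba differed by -1.86 in ECs, -0.10 in HEPs and 0.73 in HSCs, with adjusted p = 3.43e-07, 0.838 and 0.0415 from limma. With libraries centred on their median, 0 genes of this list rose in HSCs. b2m, the light chain of class I, differed by -1.47, -0.30 and 0.03. Of 30 genes of the endoplasmic reticulum and integrated stress response, to which slc3a2b belongs, 7 fell and 10 rose in ECs, 10 fell in HEPs and 9 fell in HSCs. With libraries centred on their median, 5 fell and 15 rose in ECs. Of 27 immediate early genes, to which rgs2 belongs, 18 fell and 3 rose in ECs (14 and 6 with centred libraries) and 14 fell in HEPs, while 14 rose in HSCs. rgs2 itself, a regulator of G protein signals, differed by -6.08, -2.57 and -1.69, while 0 of the other genes of that list fell in HSCs.

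**Figure D4:**
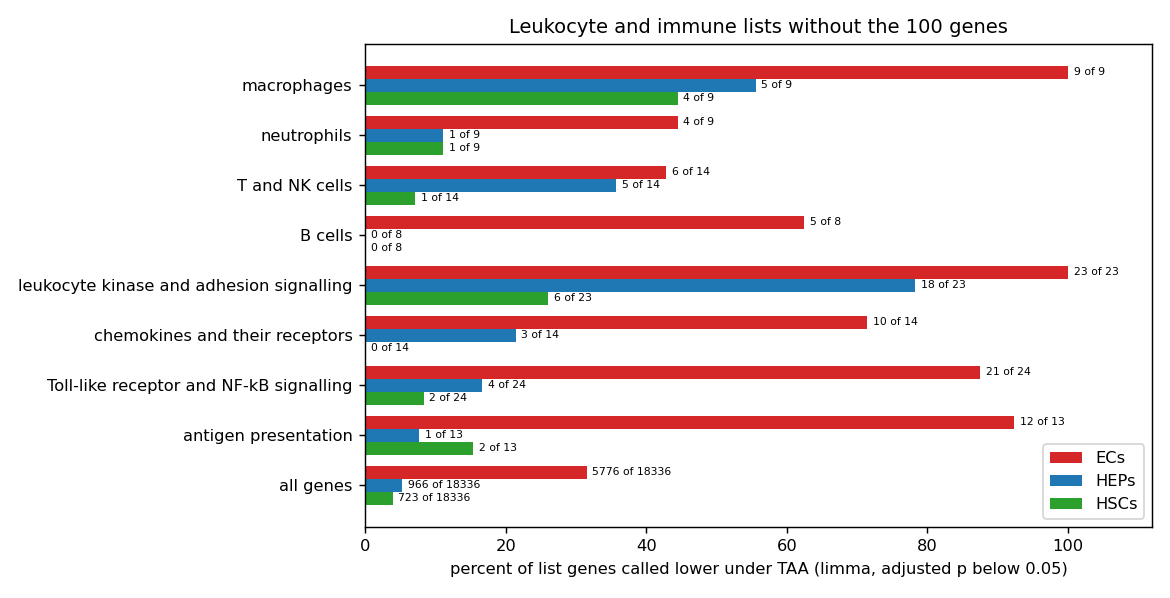
Percent of the genes of 8 immune lists, without the 100 genes, called lower under TAA in ECs, HEPs and HSCs by limma, with all genes at the bottom; numbers at the bars are genes called of genes tested. The macrophage and kinase lists are called in full in ECs, and 18 of 23 kinase list genes are called in HEPs.

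The reporter-negative control cells were not used to choose the members. There, the members were expressed in all 3 lines, at median levels of 5.02 (mCherry-negative), 4.84 (dsRed-negative) and 5.05 (EGFP-negative). The mCherry-negative and dsRed-negative cells carried hepatocyte markers at the level of control HEPs, as given above, so dsRed-negative does not mean free of hepatocytes. The counts that follow use libraries on which the rule rested and are given without a test. Control ECs were above their negative cells in every library for 88 members, beside 30.4% of all genes. Control HEPs were above theirs in every library for 24 members, beside 5.73% of all genes, and control HSCs for 0, beside 6.41%. Without EGFP-negative replicate 3, left out after seeing the data, where the members averaged 7.35 against 4.19 and 3.94, the HSC count was 21, beside 19.1% of all genes. The negative cells were above every TAA library of their line for 97 members in the EC line, 76 in the HEP line and 88 in the HSC line, beside 23.2%, 25.3% and 16.4% of all genes. The last count was again 88 without EGFP-negative replicate 3, beside 25.4% of all genes.

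Between the negative cells of the lines, limma called 0 members for mCherry against dsRed, 1 for mCherry against EGFP and 1 for dsRed against EGFP, beside 0.104%, 0.344% and 0.224% of all genes. At an unadjusted p below 0.05 the counts were 5, 8 and 6 members, beside 8.34%, 9.55% and 11% of all genes. The called gene was sh3bp5a in both comparisons. It read 4.74, 5.97 and 5.94 in EGFP-negative cells, 1.74, 1.9 and 1.70 in mCherry-negative cells and 2.43, 0.61 and 1.65 in dsRed-negative cells, so the EGFP line stood above both others in every library. The difference was -3.77 ± 0.56 (SE) for mCherry against EGFP with adjusted p = 0.03, and -3.99 ± 0.56 for dsRed against EGFP with adjusted p = 0.0342. Over the alternatives its adjusted p ranged from 0.00372 to 0.779 and from 0.00278 to 0.738, and the highest values came without replicate 2.

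Most counts of called members between negative cells changed with EGFP-negative replicate 3. The comparison of mCherry with dsRed holds no EGFP library. Its median member difference was 0.32 with and without that library, and only the spread shared in the fit changed. The mean of the 100 genes in EGFP-negative replicate 3 stood above the 4.22 to 5.34 in the negative cells of the other lines. Without it, a choice made after seeing the data, 5 members were called for mCherry against dsRed, 34 for mCherry against EGFP and 27 for dsRed against EGFP, beside 3.02%, 9.71% and 13.7% of all genes. Of the 34, 33 were higher in mCherry-negative cells, and of the 27, 25 were higher in dsRed-negative cells. Named after their values were seen, prkcha differed by 3.43 ± 0.50 (SE), ptpn22 by 3.25 ± 0.47 and INPP4B by 3.12 ± 0.49 for mCherry against EGFP, with adjusted p = 0.00154, 0.00155 and 0.00236. mhc2dga was higher in mCherry-negative than in dsRed-negative cells by 3.82 ± 0.84 with adjusted p = 0.035, and mhc2dgb by 3.55 ± 0.80 with adjusted p = 0.0378. The dsRed-negative values of both genes were split over replicates, as given above. Their SEs rest on a spread shared by all lines and do not measure this split, so no difference between lines is read from them. With EGFP-negative replicate 3 kept, the adjusted p-values of all 5 of these genes were above the threshold.

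The members also varied together among the 9 negative libraries. The correlation of each with the mean of the 9 macrophage list genes outside the members had a median of 0.86, beside 0.18 over all genes, and 68 of 100 members were at 0.8 or above, beside 8.32% of all genes. csf1ra, crtam, lyn and FGL2 each had r = 0.98. aste1a was at -0.40, SHANK2 at 0.19, slc47a2.1 at 0.21, sh3bp5a at 0.38 and SLC16A6 at 0.43. Without EGFP-negative replicate 3 the median was 0.60, beside 0.11 over all genes, and 14 members were at 0.8 or above, beside 1.15% of all genes. In these 8 libraries lyn was at 0.91, while sh3bp5a, SLC16A6 and tmem116 were at -0.32, -0.06 and -0.45. Other lists were also high in EGFP-negative replicate 3. Neutrophil genes averaged 6.59 there against 1.38 and 1.62, thrombocyte genes 5.1 against 1.53 and 0.84, and endothelial genes 6.11 against 2.64 and 2.41. Erythroid genes were not, at 1.31 against 1.44 and 1.91. Correlations with these lists were not computed, so the values do not show co-variation particular to macrophage genes. The points share libraries, their depth and the rlog scaling, so the values are a description.

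**Figure D5:**
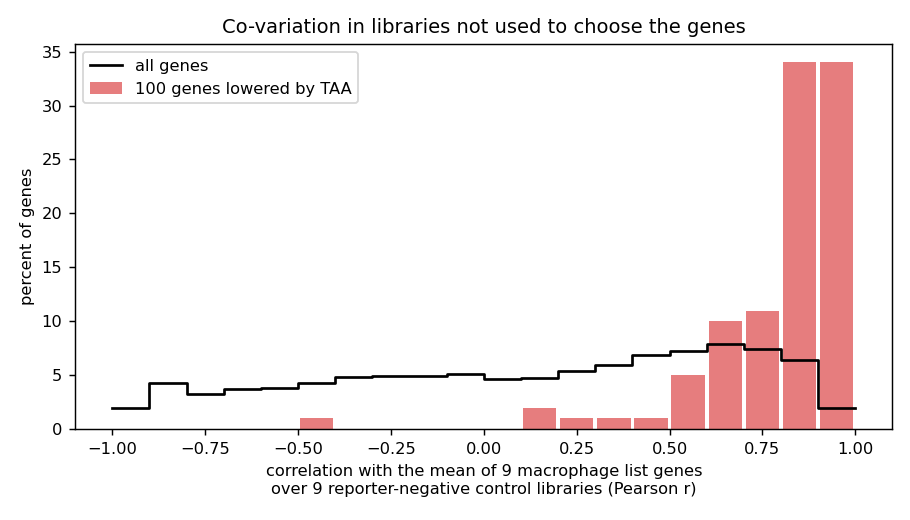
Percent of genes by their Pearson correlation with the mean of 9 macrophage list genes over the 9 reporter-negative control libraries, as bars for the 100 genes and as a line for all genes. The bars at 0.8 or above hold 68 of the 100 genes, against 8.32% of all genes. Without EGFP-negative replicate 3 (not drawn) 14 of the 100 were at 0.8 or above, against 1.15% of all genes.

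By name, 84 members matched a single coding gene in the RefSeq annotation of GRCz12tu. Of these, 8 pairs stood next to each other or had at most 5 coding genes between them. c1qa and c1qb had 1 gene between them, cd74a and csf1ra had 3, and si:dkeyp-68b7.12 and fcer1gl had 3. The other pairs were the 2 adjoining pairs of MHC class II genes, tlr1 with rgs14a, ccl35.1 with olfm4l2, and slc2a3b with si:dkey-26c10.5.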

How the data were processed

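RNA of sorted liver cells was sequenced in 27 libraries. Per the submitters' processing notes, FastQC 0.11.8, cutadapt 1.18, STAR 2.6, SAMtools 1.9, DESeq2 and the build GRCz11 were used. For 18336 genes the authors deposited log2-scale values made with the rlog transformation of DESeq2, from -2.62 to 22.57. They are not counts, and rlog draws the values of genes with few reads towards each other, so their differences are understated.

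Libraries were grouped by their labels, and all columns were assigned. limma 3.58.1 in R 4.3.3 (group means, eBayes with trend, Benjamini-Hochberg over all genes, threshold 0.05) was fitted to the 18 reporter-positive libraries and separately to the 9 reporter-negative libraries, without a filter, and was tested on simulated data. Descriptions used Python 3.11.15, pandas 2.3.3, numpy 2.4.6 and matplotlib 3.10.9. Gene symbols came from the reference table and the study's gene table, for 94 of the 100 members. A gene that the rule names for removal was not among the 100 lowest.

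The members and lists were chosen with earlier results of these data known, and the roles were assigned after their values were seen. Named genes were the 12 members ranked lowest, members on a fixed list, 3 genes on each side of the limit, up to 3 called members in each direction between negative cells, and members of 1 gene family. Other names were chosen after their values were seen. The alternatives were fits of 6 libraries, no trend, a mean value of at least 3, other scalings, a replicate block and leaving out replicates. Promoter motifs were not analysed here.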

Additional observations from a re-analysis of the deposited data

How the results depend on the processing

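Of the 100 members, 95 stayed among the lowest 100 genes with libraries centred on their median, 94 with quantile normalization, 67 with medians in place of means, 51 when ranked by the mean of the 3 differences, and 66 to 67 without each replicate. Under all of these alternatives 26 stayed, among them cd74a, cxcr4b, csf2rb, lyn, mrc1b and DUSP6.

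Between negative cells, members called for mCherry against dsRed numbered 0, beside 19 of all 18336 genes. In a fit of the 6 libraries compared they numbered 4, beside 555 of all genes. Without each replicate they numbered 0 to 3, the 3 beside 117 of all genes. Without EGFP-negative replicate 3 they numbered 5, beside 554. For mCherry against EGFP they numbered 1, beside 63 of all genes. They numbered 0 in a fit of 6 libraries, and 0 with a mean value of at least 3 (91 members tested, sh3bp5a not among them). With centred libraries they numbered 2, beside 75 of all genes. Without each replicate they numbered 0 to 30, the 30 beside 1164 of all genes. Without EGFP-negative replicate 3 they numbered 34, beside 1781. For dsRed against EGFP they numbered 1, beside 41 of all genes. They numbered 0 in a fit of 6 libraries and 0 with a mean of at least 3. Without each replicate they numbered 0 to 22, the 22 beside 1654 of all genes. Without EGFP-negative replicate 3 they numbered 27, beside 2509. With the replicate block both comparisons with EGFP had 0 calls. Between negative cells of different lines, and between TAA and control, same-numbered libraries deviated together only weakly, with correlations of -0.176 to 0.147. In these fits the numbers were not taken as pairs. Positive and negative control cells of the same line were not checked in this way, and whether they share livers is not given. There, mhc2dga, mhc2dgb and aste1a had the same split over replicates in both kinds of cells.

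Leukocyte list genes outside the members called lower numbered 24 in ECs, 12 with a mean of at least 3, where 13 were tested. They numbered 11 in HEPs, and 5 to 6 without each replicate, and 6 in HSCs, 2 in a fit of 6 libraries and 0 to 9 without each replicate. All genes called in either direction numbered 1357 in HEPs, and 348 to 758 without each replicate. In HSCs these numbered 1505, and 311 to 857 without each replicate. The replicate block left 24, 11 and 6 of the leukocyte list genes. With centred libraries 5 of them rose in ECs in place of 2, and B cell genes that fell in ECs numbered 3 in place of 5. Chemokine list genes that rose in ECs numbered 2 in place of 1, and those that fell 8 in place of 10. Antigen presentation genes that fell numbered 8 in place of 12 in ECs, and 2 in place of 1 in HEPs. Toll-like receptor and NF-kB genes that fell in ECs numbered 15 in place of 21. Of all genes 3756 fell in ECs with centred libraries in place of 5776. Members with every control HSC library above the EGFP-negative ones numbered 0, beside 6.41% of all genes. Without EGFP-negative replicate 3 they numbered 21, beside 19.1%. The causes were not tested beyond the number of genes or libraries in each fit. Promoter motifs were not run. The table holds no depth, so no limit of detection can be given.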

Other observations

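In the TAA ECs the values of many members differed by the same steps between libraries. Between TAA EC replicates 1 and 2 the members' median step was 0.23, and between replicates 2 and 3 it was 0.14. Both steps were within 0.03 of these values for 48 members, beside 1.86% of all genes. The steps were taken from the members themselves, in libraries that the rule used, which favours the members, so the counts are a description. c1qa, for example, read 0.69, 0.93 and 1.07, and havcr1 0.76, 1.0 and 1.14. The mean of a member in TAA ECs was under 1 for 44 members, against 10 in TAA HEPs and 20 in TAA HSCs. cxcr4b, c1qb and ccl34a.4 had means above 1 in TAA ECs, but their values given above followed the same steps. Without read counts, such values cannot be told apart from a floor reached by genes with few reads. How far the EC differences of such members rest on the control level alone was not tested.

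The stellate marker genes went the other way in the HSCs. There 7 of 11 rose under TAA with a median difference of 1.75, beside 4.26% of all genes called higher. PDGFRB, a receptor gene of stellate cells, read 3.13, 2.03 and 2.59 in control HSCs and 4.96, 5.08 and 4.08 under TAA. The mean of the 11 genes was 1.43 to 2.53 in control HSCs, which overlapped the 1.78 to 2.1 of control HEPs. It was 3.77 to 4.3 in TAA HSCs. The part of the share of stellate cells in this rise was not tested.

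aste1a was low in replicate 3 of the reporter-negative cells in the same lines as in the positive cells. It read 6.51, 5.69 and 1.04 in mCherry-negative cells, 4.47, 4.70 and 0.98 in EGFP-negative cells and 7.33, 5.79 and 6.09 in dsRed-negative cells.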
